A study of Rattus norvegicus with 5 samples.

Results

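Sodium channel beta subunit genes and fibroblast growth factor homologous factor (FHF) genes were followed in cultured rat dorsal root ganglion cells. The members were chosen by symbol in the combined gene table: 3 beta subunit genes, Scn2b, Scn3b and Scn4b, and 4 FHF genes, Fgf11, Fgf12, Fgf13 and Fgf14. All 7 were found among the 33014 gene symbols of the table, and 29 of the 98811 transcript records in the quantification files belonged to them. The study belongs to a screen for pain drugs that reads the firing of sensory neurons with light. Its 5 libraries form 1 group: wild-type Sprague Dawley rats of postnatal day 10, with ganglia of a litter of 10 pups dissociated and plated at 5000 cells per well, PBS given after 1 day, and harvest after 8 days. Each sample pooled 3 wells, and RNA was selected by poly-A tail. Nothing in the labels says that the samples came from separate litters, so every p-value measures only the spread between these samples, which may be technical. All cells of a well were lysed together, so a lower level can mean fewer cells of a type or less RNA per cell, which cannot be told apart.

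A voltage-gated sodium channel is built around an alpha subunit, which forms the pore. Beta subunits are single-pass membrane proteins with an immunoglobulin-like domain outside the cell, and they change the gating and surface density of the pore and act as adhesion molecules. FHFs resemble secreted fibroblast growth factors but stay inside the cell, bind the C-terminal tail of the alpha subunit and alter its inactivation. In sensory neurons both families act on the channels that set the threshold and rate of firing.

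Libraries held between 21596608 and 27913098 estimated reads. All 12 pan-neuronal genes and all 10 genes of Schwann and satellite cells were detected, that is, at 1 TPM (a transcript level scaled by length and library size) or more in every library, as were 6 of 6 fibroblast and 7 of 7 macrophage genes. Of 4 central glia genes 1 was detected. Of 6 striated muscle genes 5 were detected too, so detection at this level does not by itself mark a cell type. The median level was 373 TPM over the neuronal list, 410 TPM over the Schwann and satellite list and 2.83 TPM over the muscle list. No value below shows which cell expressed a gene.

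The promoter windows of 6 members are given by RefSeq on the build GRCr8, from 250 bases before to 50 bases after a start, as 8 windows in all. Both strands were searched for CCAAT, for GGGCGG as the core of an Sp1 site, for TATAAA, and for TGACGTCA as a cyclic AMP response element. They were also searched for CAGCACC and for GGACAG, taken here as the left and right portions of the site of the neuronal repressor REST. The upstream parts of 4 windows are shown, for the most abundant member, for Fgf12, whose records are described below, and for Scn2b and Scn4b, which are adjacent genes on this build with none listed between them. Capitals mark matches to the searched letters.
Fgf13, chrX:142423537-142423786, minus strand: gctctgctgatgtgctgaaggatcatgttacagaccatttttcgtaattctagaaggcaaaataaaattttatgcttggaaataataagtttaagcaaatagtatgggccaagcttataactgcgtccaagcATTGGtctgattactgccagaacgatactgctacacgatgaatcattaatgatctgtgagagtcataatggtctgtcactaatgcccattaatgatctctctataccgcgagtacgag
Fgf12, chr11:85501697-85501946, plus strand: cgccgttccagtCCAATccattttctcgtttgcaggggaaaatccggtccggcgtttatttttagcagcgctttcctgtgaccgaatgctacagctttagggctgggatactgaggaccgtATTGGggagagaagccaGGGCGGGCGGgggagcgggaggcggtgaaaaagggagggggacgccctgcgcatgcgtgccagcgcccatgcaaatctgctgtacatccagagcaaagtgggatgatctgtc
Scn2b, chr8:54322133-54322382, plus strand: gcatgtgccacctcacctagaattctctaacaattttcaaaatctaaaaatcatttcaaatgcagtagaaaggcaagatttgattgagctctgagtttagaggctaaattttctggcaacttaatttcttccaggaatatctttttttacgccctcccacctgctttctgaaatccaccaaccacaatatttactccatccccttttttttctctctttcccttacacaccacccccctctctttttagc
Scn4b, chr8:54343623-54343872, plus strand: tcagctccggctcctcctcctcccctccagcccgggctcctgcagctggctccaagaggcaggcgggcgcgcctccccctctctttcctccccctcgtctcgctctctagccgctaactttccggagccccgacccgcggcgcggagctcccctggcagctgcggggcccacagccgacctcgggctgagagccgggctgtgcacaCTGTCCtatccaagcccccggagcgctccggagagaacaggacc
The Fgf13 window starts 415 kb inside the gene, measured from its outermost start on this build. Fgf12 and Fgf14 have 2 windows each, the inner ones 299.8 kb and 406 kb inside the gene. The records quantified here are not tied to these starts in the sources used here.

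Base composition differed widely between the windows. The windows of Fgf13 and Scn2b each had a GC content of 39.0%, and 10.04% of the 33469 windows of all genes were lower. The Scn4b window held 70.0%, with 91.7% of all windows lower, although its neighbour is Scn2b. The outer Fgf12 window held 58.7%, against a median of 51.7% over all windows. CCAAT was present in the windows of Fgf13, Fgf12 (outer) and Fgf14 (inner), and in 37.5% of all windows. GGGCGG was in those of Fgf11, Fgf12 (outer) and Fgf14 (inner), against 33.1% of all windows, and no member window held TATAAA (14.2% of all) or TGACGTCA (1.83% of all). GGACAG, present in 21.7% of all windows, was found in the Scn4b, Fgf12 (outer) and Fgf14 (inner) windows, and CAGCACC, present in 6.78%, only in the outer Fgf12 window among the 8.

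Both portions stood in order on the same strand in the outer Fgf12 window, 9 bases apart, from base 11 after the start. This pairing was searched after the window had been seen, with 5 to 15 bases allowed between the portions, and 25 of 33469 windows (0.0747%) held it. Pairs with fewer than 5 bases between the portions were not counted, so this share is not that of REST sites. The stretch, chr11:85501957-85501978, carries the portions in capitals.
Fgf12 pair: CAGCACCacgctccgaGGACAG
A match of letters is a description and does not show that a factor binds.

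The 7 genes spanned a wide range of levels, led by Fgf13 and Scn3b. Their order by mean TPM, a level per transcript length, was Fgf13, Scn3b, Fgf12, Scn2b, Scn4b, Fgf11 and Fgf14. In all, 6 of 7 were detected, against 41.3% of all genes in the table. The median level was 14.5 TPM over the 3 beta subunit genes and 10.3 TPM over the 4 FHF genes, beside 20.5 TPM over all detected genes and 0.297 TPM over all genes.

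**Figure D1:**
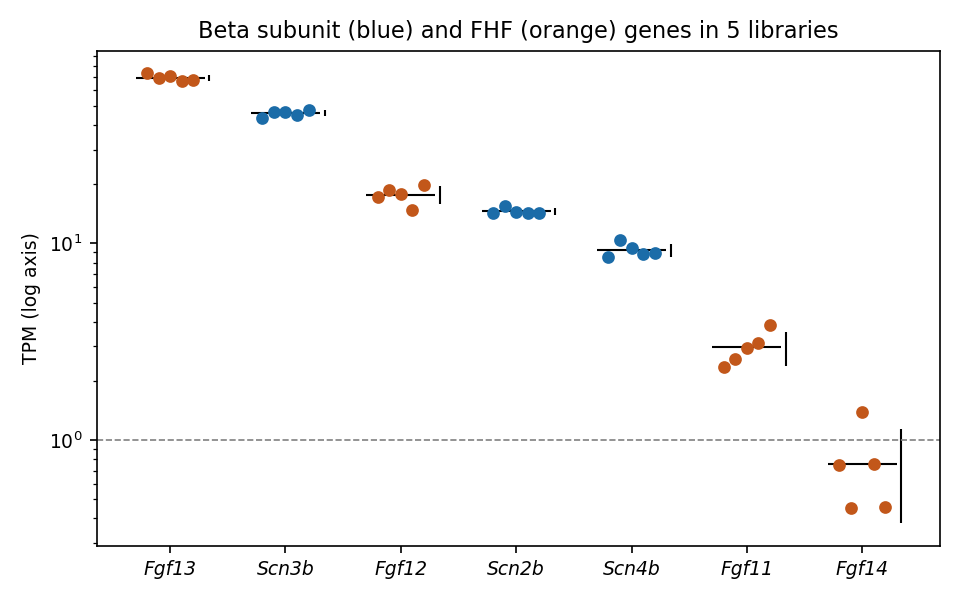
TPM (log axis) of the 7 genes in each of the 5 libraries. Points are libraries in the order of replicates 1 to 5, horizontal bars the mean, vertical bars the SD and the dashed line the detection level of 1 TPM. Fgf13 and Scn3b lie apart from all others, Fgf12 and Scn2b lie close together, and Fgf14 is under the line in 4 of 5 libraries.

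Scn3b was the highest of the beta subunit members. It encodes beta-3, a subunit that associates with the pore without a covalent bond. Its TPM was 43.7, 46.7, 46.5, 44.8 and 47.97 in replicates 1 to 5, a mean of 45.9 ± 1.68 (SD, n = 5), higher than 72.8% of detected genes. Its libraries did not overlap those of any other member.

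Scn2b encodes beta-2, which is joined to the alpha subunit by a disulfide bond. It was at 14.2, 15.5, 14.4, 14.3 and 14.3 TPM (mean 14.5 ± 0.521). Replicate 2 stood above the others, which lay within 14.2 to 14.4 TPM. Scn4b encodes beta-4, also disulfide-linked, whose short intracellular tail can block the open pore and is known for resurgent sodium current. Its TPM was 8.54, 10.4, 9.48, 8.87 and 8.98 (mean 9.26 ± 0.729), again highest in replicate 2, and its libraries did not overlap those of Scn2b. Of the summed TPM of these 3 genes, Scn3b held 65.9% ± 1.06, Scn2b 20.9% ± 0.581 and Scn4b 13.3% ± 0.685.

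Fgf13, the FHF best known in nociceptors for binding Nav1.7, was the most abundant of the 7. Its TPM was 73.4, 69.1, 71.0, 67.4 and 67.8 (mean 69.7 ± 2.50), higher than 81.6% of detected genes. Replicate 1 was highest. It held 76.5% ± 1.88 of the summed TPM of the 4 FHF genes.

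Fgf12 followed at 17.2, 18.7, 17.8, 14.9 and 19.8 TPM (mean 17.7 ± 1.85), or 19.4% ± 1.71 of the FHF sum. Its lowest library, replicate 4, lay below the highest library of Scn2b. Fgf11, a further FHF, was at 2.36, 2.59, 2.92, 3.10 and 3.85 TPM (mean 2.96 ± 0.572). Fgf14, known for spinocerebellar ataxia and for its place at the axon initial segment of central neurons, was at 0.750, 0.451, 1.39, 0.754 and 0.454 TPM (mean 0.759 ± 0.382). Only replicate 3 passed 1 TPM. Between 25 and 42 estimated reads per library backed Fgf14. Its span overlaps that of Itgbl1 on GRCr8, a gene at 9.31 TPM here. The strand setting is not given in the sources used here and overlap of exons was not examined. Whether reads of these genes can be separated was therefore not tested.

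Neighbours in the order were tested by the difference of log2(TPM + 0.1) within each library, in limma fits of every gene with mean TPM of at least 1 against a reference member. The member that varied less served as reference, and p-values were adjusted by Benjamini-Hochberg over all 14227 genes of a fit. Such fits call most genes: 97.7% of genes differed from Fgf13, 96.8% from Scn3b, 95.8% from Scn2b and 95.4% from Scn4b, so a call shows only that levels differ beyond the spread between libraries. All 15 pairs of the 6 detected members were called, which is near that background. Rows of a fit share the reference gene's own deviations, so these p-values can be too small. The exact sign-flip permutation test (two-sided), run on the same differences, gave p = 0.0625 for each neighbour pair below, the smallest that 5 libraries allow, and so cannot pass 0.05.

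Scn3b lay below Fgf13 on the log2 scale by -0.60 ± 0.09 (SD over 5 libraries; limma adjusted p = 5.25e-06), a 1.52-fold gap in 5 of 5 libraries. Fgf12 lay below Scn3b by -1.38 ± 0.12 (limma adjusted p = 1.11e-07). Fgf12 exceeded Scn2b by only 0.27 ± 0.15 (limma adjusted p = 0.0033), 1.21-fold and again in 5 of 5 libraries. Scn4b lay below Scn2b by -0.65 ± 0.07 (limma adjusted p = 1.46e-06) and Fgf11 below Scn4b by -1.63 ± 0.30 (limma adjusted p = 2.33e-07). Fgf14 was under the filter of the fit. Fgf11 exceeded it by 1.92 ± 0.69 (log2) in 5 of 5 libraries, with the same exact sign-flip p of 0.0625, the smallest possible.

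Levels per length and by reads ordered the genes differently, as the plot of TPM against CPM shows. In CPM (estimated reads scaled by the library total), which do not correct for length, Scn3b was at 101 ± 3.13 and Fgf13 at 76.5 ± 2.73. The difference of Scn3b from Fgf13 then turned to 0.40 (limma adjusted p = 9.74e-05). Scn2b stood at 37.5 ± 1.11, Scn4b at 23.0 ± 1.59 and Fgf12 at 22.1 ± 1.26 CPM. Fgf12 was below Scn2b by -0.76 (log2; limma adjusted p = 1.84e-06) on this scale and not told apart from Scn4b (-0.06; limma adjusted p = 0.254). Fgf11 and Fgf14 were lowest on both scales, at 4.202 ± 0.547 and 1.36 ± 0.215 CPM. Longer transcripts give more reads at the same number of molecules, so CPM ranks are not ranks of transcript number.

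**Figure D2:**
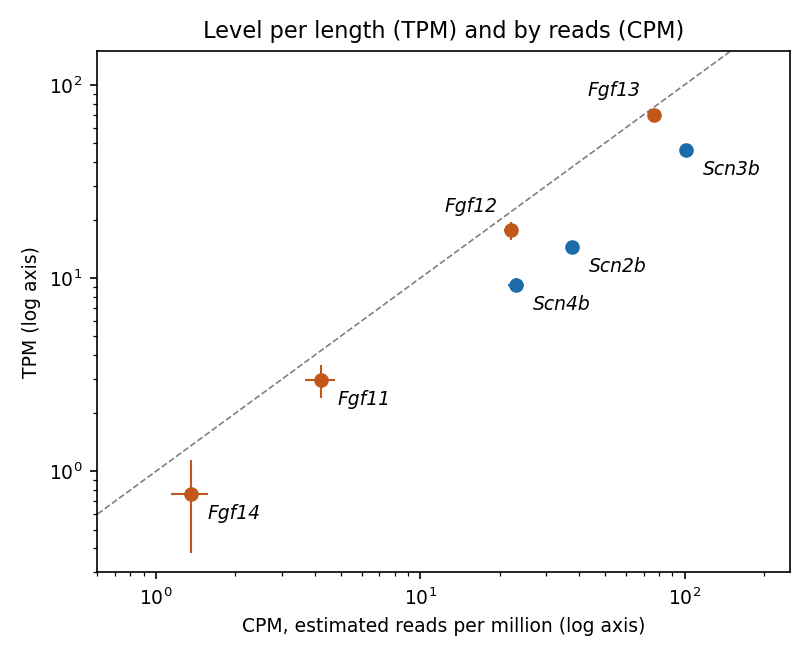
Mean TPM against mean CPM of the 7 genes (both axes log), with SD over 5 libraries as bars and equal values on the dashed line. Fgf13 is above Scn3b in TPM (69.7 against 45.9) and below it in CPM (76.5 against 101), and Fgf12 and Scn2b swap in the same way.

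Fgf13 and Scn2b were carried almost wholly by 1 transcript record each, while the other members were divided. Records were tied to genes through the RefSeq table of GRCr8 by accession without version. For 6 members part of the gene TPM was left over. In each of these, exactly 1 unnamed record, or 1 pair of unnamed records for Fgf12 and Fgf14, equalled the remainder within 2e-05 TPM in every library, and these 8 records were assigned to the gene. Shares below are of all records, a choice made after seeing the data, unless said to be of the records named by the table. Record names are those of the files, and which protein isoform a record encodes is not used here. Salmon divides reads that records share by a model, so shares of similar records carry an error that the SD does not cover.

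For Fgf13, the record NM_053428.2 held 89.8% ± 1.14 of the gene's TPM over its 6 records. Its level was 67.05, 61.1, 63.2, 60.7 and 61.04 TPM in replicates 1 to 5. The next record, XM_017602168.2, was at 4.29 ± 1.18 TPM (6.18% ± 1.74). A further record, XM_017602169.2, had 0 reads in all libraries, which allows up to 0.0159 TPM over the 5 libraries (3 reads; counting error only).

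Scn3b was spread over 6 records. NM_139097.3 held 60.4% ± 2.03 and XM_006243102.2 held 26.6% ± 2.10, at 27.8 ± 1.46 and 12.2 ± 1.04 TPM. The first was higher in 5 of 5 libraries (exact sign-flip permutation p = 0.0625, the smallest possible). Scn2b rested on NM_012877.2, at 98.3% ± 1.47. For Scn4b, the NM_001008880.2 record held 72.0% ± 7.30, between 59.97% and 79.4%, and the assigned record XM_039081432.1 held the rest. NM_001008880.2 is the only Scn4b record named by the table, so it holds 100% there. The assigned record was at 3.60 TPM in replicate 5 and between 2.12 and 2.53 TPM in the others, while the gene's total in replicate 5 (8.98 TPM) was inside the range of the others.

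Fgf12 was divided over 4 records of very unequal length. The 732-base record NM_130814.1 was at 8.76, 10.1, 9.03, 6.94 and 11.7 TPM, highest in replicate 5 and lowest in replicate 4, as was the gene's total. It held 52.3% ± 4.68 of the gene's TPM but 12.2% ± 2.32 of its estimated reads, a mean of 64.6 reads per library. Among named records alone its share of TPM was 82.0% ± 7.29. XM_017597855.2, of 3333 bases, held 32.2% ± 3.83 of TPM and 48.6% ± 5.01 of reads. XM_017597854.2, of 2937 bases, held 11.6% ± 5.01 of TPM and 15.1% ± 5.90 of reads, or 18.0% ± 7.29 of the TPM of named records. XM_039087922.1, of 13128 bases, held 3.84% ± 0.732 of TPM and 24.1% ± 3.10 of reads. Without the 732-base record, an alternative chosen after seeing the data, Fgf12 was at 8.36 ± 0.361 TPM. Its mean then lay below those of Scn2b and Scn4b rather than above them, so the place of Fgf12 in the order rests on this record. Its length is a whole multiple of 3, as are those of the short Fgf11 and Fgf14 records (678 and 744 bases). The longer Fgf12 records and both Scn4b records also have such lengths, so this does not set the short records apart.

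Fgf11 had no leading record. XM_039085115.1 held 34.4% ± 11.7, XM_039085111.1 27.4% ± 12.8 and XM_017596975.2 25.3% ± 14.8 of TPM, with 87.0 to 142 estimated reads for the whole gene per library. Among the 3 records named by the table, XM_039085115.1 exceeded XM_017596975.2 in 4 of 5 libraries (exact two-sided sign-flip permutation p = 0.1875), with a mean share of 47.6% ± 13.8. The 678-base record NM_130816.1 had 0 reads in 3 libraries and 1.47 TPM in replicate 5, from 8.28 reads, where the gene was highest. For Fgf14, 1 of 5 records had 0 reads throughout. The 744-base record NM_022223.2 added 0.720 TPM in replicate 3 from 5 reads, in the single library where Fgf14 passed 1 TPM. Its other records changed places between libraries: XM_017599795.1 held 0% to 98.7% of the gene's TPM and XM_039093639.1 held 0% to 55.8%.

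**Figure D3:**
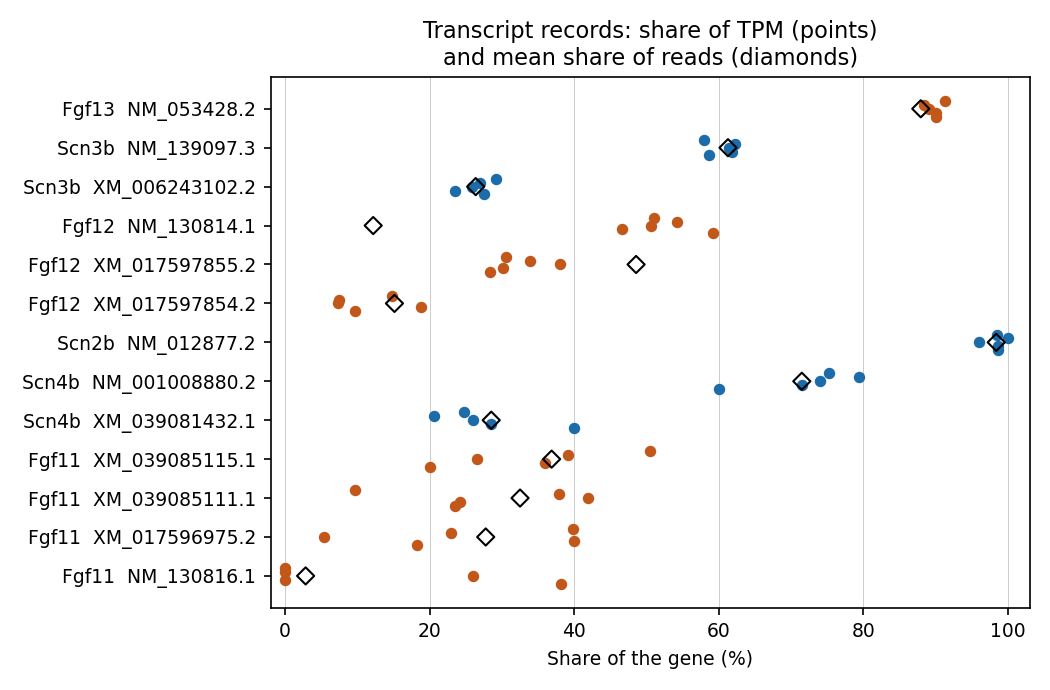
Share of each gene's TPM held by every record with at least 10% on average, for 6 genes (Fgf14 left out for its low reads). Points are the 5 libraries and open diamonds the mean share of estimated reads; for NM_130814.1 of Fgf12 the points lie near 52.3% and the diamond at 12.2%.

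The spread between libraries was small for the abundant members. The coefficient of variation (CV, SD over mean) of TPM was 3.59% for Fgf13, 3.66% for Scn3b and 3.58% for Scn2b, where counting reads alone would give 2.32%, 2.02% and 3.31%. Among genes within 1.5-fold of the same level, 43.4%, 38.2% and 15.4% had a lower CV. Scn4b, at 7.87%, lay close to the median of 7.27% for its level. Fgf12 varied more than most genes of its level: its CV of 10.5% exceeded that of 89.4% of 3085 genes. In CPM the CV of Fgf12 was 5.70%, and without the 732-base record it was 4.32% in TPM. Fgf11 and Fgf14 had CVs of 19.3% and 50.3%, against 13.02% and 26.6% for the median gene of their level. Without the 744-base record the CV of Fgf14 was 19.4%. Single libraries set several of these values. Without replicate 2 the CV was 0.423% for Scn2b, below the 3.31% from counting reads alone, and 4.32% for Scn4b. Without replicate 1 it was 2.38% for Fgf13. It was 6.15% for Fgf12 without replicate 4, 12.2% for Fgf11 without replicate 5 and 28.8% for Fgf14 without replicate 3.

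**Figure D4:**
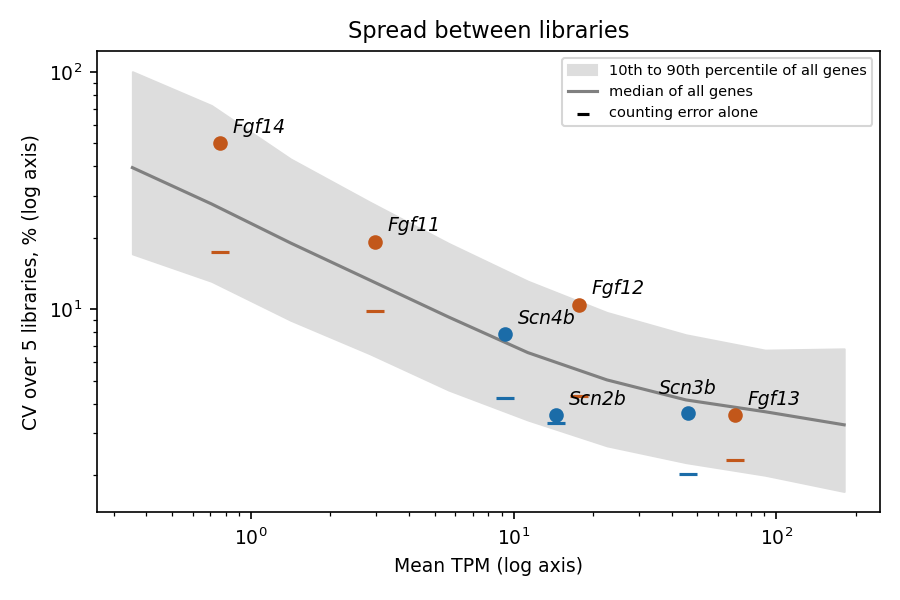
CV over the 5 libraries (log axis) against mean TPM (log axis). Points are the 7 genes, and short dashes the CV from counting the gene's estimated reads, summed over its records. The dashes can understate the counting error of TPM where a short record holds few reads, as in Fgf12, Fgf11 and Fgf14. The grey line is the median and the band the 10th to 90th percentile of all genes in steps of level. Scn2b lies close to its counting error (3.58% against 3.31%), and Fgf12 is near the upper edge of the band.

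Members reached their highest level in different libraries. Centred on its own mean, log2(TPM + 0.1) of Scn4b ran from -0.11 in replicate 1 to 0.17 in replicate 2, and that of Scn2b from -0.03 to 0.09 in the same libraries. Fgf13 was highest in replicate 1 (0.07), where Scn3b was lowest (-0.07). Fgf12 was lowest in replicate 4 (-0.24) and highest in replicate 5 (0.17). Averaged over the 12 pan-neuronal genes the centred value was lowest in replicate 1 (-0.07) and highest in replicate 2 (0.06), and over the 10 Schwann and satellite genes it ran from -0.06 in replicate 1 to 0.04 in replicate 3. The summed TPM of the neuronal list ranged from 9168 to 9584. The macrophage list moved more: its centred value was -0.44 in replicate 2, where Scn2b and Scn4b were highest, and 0.22 in replicate 5, where Fgf11 (0.38) and Fgf12 were highest, and its summed TPM ranged from 1195 to 1894. The replicate 5 peaks hold in TPM only and go with short records. There the 678-base Fgf11 record was at 1.47 TPM from 8.28 reads, and the 732-base Fgf12 record was highest, at 11.7 TPM. In CPM, Fgf11 was highest in replicate 4 (5.09) and Fgf12 in replicate 2 (23.6). The part of the shifts of the cell type lists in the members' levels was not tested.

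For likeness, the root mean square difference of centred log2 values over the 5 libraries was taken against 9424 or 9425 genes of at least 10 TPM, as a description. The nearest to Fgf13 were Sacm1l, Elk1 and Gstm5 (0.0035, 0.0041 and 0.0079, against a median of 0.069 over the genes compared). The nearest to Scn3b were Arglu1, Ube3a and Arrdc1 (0.0062, 0.0077 and 0.011), and to Scn2b Man2c1, App and Pla2g12a (0.0093, 0.0097 and 0.010). Scn4b was nearest to Kcnj10, Id3 and Cacna1b (0.015, 0.021 and 0.021, median 0.105), and Fgf12 to Nts, Coq6 and Nfkbia (0.036, 0.038 and 0.039, median 0.144). For Fgf11 these were LOC102553828, Tyrobp and Cnih2 (0.072, 0.082 and 0.095, median 0.245), and for Fgf14 LOC100363537, Rps18l1 and Rpl35al1 (0.156, 0.226 and 0.323, median 0.53). Short records with few reads enter these profiles. The Fgf11 value in replicate 5 includes 1.47 TPM from 8.28 reads, and the Fgf14 value in replicate 3 includes 0.720 TPM from 5 reads. Whether the genes named vary together with the members was not tested.

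Set beside the pore-forming genes, Fgf13 and Scn3b exceeded every neuronal alpha subunit gene compared, and Scn4b lay below the 3 nociceptor channel genes. The alpha genes were Scn9a (Nav1.7, 24.6 ± 1.88 TPM), Scn10a (Nav1.8, 14.9 ± 0.526), Scn11a (Nav1.9, 13.2 ± 1.06) and Scn8a (Nav1.6, 2.196 ± 0.139). Of 20 differences between these 4 and the 5 most abundant members, the alpha gene was lower in 14, higher in 5 and not called in 1, where 92.8% to 97.7% of all genes were called in the same fits (92.8% for Fgf12 as reference). Fgf11 was left out as a reference, a choice made after its spread had been seen. The member was the reference in all these fits, also where it varied more than the alpha gene. Fgf12 did so, with a CV (SD over mean) of 10.5% against 7.63% for Scn9a and 3.53% for Scn10a. The p-values against Fgf12 can therefore be too small.

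Against Fgf13, Scn9a was lower by -1.50 ± 0.16 and Scn10a by -2.22 ± 0.08 (log2; limma adjusted p = 2.62e-07 and 3.05e-09). Against Scn3b, Scn9a was lower by -0.90 ± 0.09 and Scn10a by -1.62 ± 0.05 (limma adjusted p = 4.95e-07 and 5.55e-09). Scn2b and Scn10a were not told apart by the fit: Scn10a minus Scn2b was 0.04 ± 0.03 (limma adjusted p = 0.213; 95% interval from -0.03 to 0.10), although Scn10a was higher in 5 of 5 libraries. Scn11a lay slightly below Scn2b (-0.14 ± 0.08; limma adjusted p = 0.0102). Relative to Scn4b, all 3 nociceptor genes were higher, by 1.40 ± 0.09 for Scn9a, 0.68 ± 0.06 for Scn10a and 0.51 ± 0.05 for Scn11a (limma adjusted p = 5.52e-09, 7.41e-07 and 5.57e-06). Fgf12 lay between Scn9a (0.48 ± 0.19 above it; limma adjusted p = 1.96e-05) and Scn10a (-0.24 ± 0.15; limma adjusted p = 0.015). The last call was lost without replicate 1, 2, 3 or 5 (limma adjusted p between 0.0571 and 0.153). With the TPM of named records alone, Scn10a minus Fgf12 turned to 0.40 (limma adjusted p = 0.0023). Named records hold only 64.0% of Fgf12 TPM but cover Scn10a in full, so this setting lowers Fgf12 alone. Without the 732-base record Fgf12 was at 8.36 TPM, below the means of Scn10a and Scn11a, a difference that was not tested.

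Several of these directions hold per length only. In CPM, with all member records, Scn9a was above Fgf13 (0.93) and Scn3b (0.52), Scn10a was above Fgf12 (1.38), and Scn11a was above Fgf12 (1.05) and Scn2b (0.29). Scn10a minus Scn2b kept its sign and was called in CPM (0.62; limma adjusted p = 1.17e-06). Transcript length enters those differences. The differences of Scn8a had no CPM value, so 15 of the 20 were compared on this scale.

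**Figure D5:**
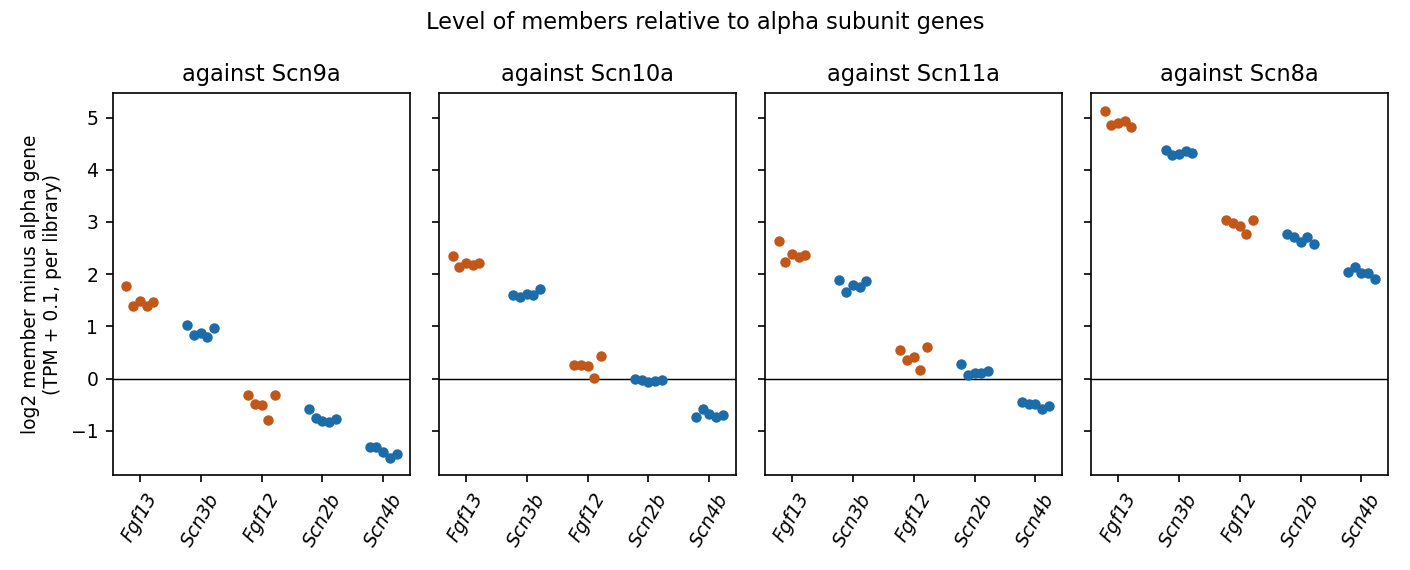
Difference of log2(TPM + 0.1), member minus alpha subunit gene, in each of the 5 libraries, with 1 panel per alpha gene and 5 members on the horizontal axis. Fgf13 and Scn3b are above 0 in every panel, Scn2b lies at 0 against Scn10a, and Scn4b is above 0 against Scn8a alone.

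Most of the genes listed as working with these subunits were detected, where 41.3% of all genes were. Among 10 alpha subunit genes 7 were detected (median 3.00 TPM), led by Scn7a at 310 ± 24.0 TPM, which encodes the sodium channel Nax, followed by Scn9a and Scn10a. All 9 genes of the initial segment and node scaffold, to which channels are anchored, were detected (median 24.8 TPM), with the spectrin gene Sptan1 at 241 ± 9.95, the adhesion gene Cntn1 at 110 ± 6.90 and the ankyrin gene Ank2 at 101 ± 7.15 TPM. Of the genes for cleavage of beta subunits and their adhesion partners, 8 of 8 were detected, led by the kinase gene Fyn at 175 ± 2.28, the sheddase gene Adam10 at 114 ± 2.99 and Tnc, an extracellular matrix gene, at 95.4 ± 9.23 TPM. All 12 genes of channel modulation and FHF binding were detected, led by S100a10 (2164 ± 17.4 TPM), which helps to bring Nav1.8 to the membrane. Calm2, a calmodulin gene, was at 794 ± 13.02 TPM.

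The secreted relatives of the FHFs were lower than Fgf13. Of 8 secreted FGF genes 6 were detected (median 4.04 TPM), with Fgf5 at 36.1 ± 4.43, Fgf2 at 27.5 ± 2.86 and Fgf1 at 6.85 ± 0.529 TPM, and Fgf18 and Fgf21 were not. Of 4 genes for receptors of secreted FGFs, Fgfr1 was at 77.2 ± 1.60, Fgfr2 at 2.11 ± 0.231 and Fgfr3 at 1.73 ± 0.242 TPM, and Fgfr4 was not detected. These differences from Fgf13 were not tested.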

How the data were processed

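Poly-A RNA libraries of 5 samples of cultured rat ganglion cells were used, all in 1 group. The submitters' processing notes list Salmon 1.5.1, Trim Galore 0.6.6, cutadapt 2.8 and the build mRatBN7.2. The strand setting was not given in these sources. The combined table holds gene TPM made by the authors. For every transcript record, TPM, length and estimated count were read from the deposited Salmon output. In estimated reads of single transcript records, no pair of libraries agreed within sampling noise (chi-square per degree of freedom 19.5 to 23.01). Salmon's division of shared reads also enters these values, so they do not measure differences between samples alone.

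Records were joined to genes through RefSeq (GRCr8), which named 67314 (68.1%). Differences used log2(TPM + 0.1) in limma 3.58.1 (R 4.3.3; intercept, empirical Bayes). The fit was also run on simulated data with Scn3b as reference, which does not test p-values against a noisier reference such as Fgf12. CPM divides estimated reads by the library total. Named are the 7 members, records with at least 10% of the TPM of a member's table-named records, the 3 highest genes of each pathway list and its undetected genes, and the 3 nearest genes of each member; other names were chosen after their values were seen. A few genes that fall under this rule are not reported here. The members and lists were chosen with earlier results of these data known. Records assigned by TPM balance, and shares over all records, were added after seeing the data. Protein identity was not analysed here. Alternatives covered pseudocounts, filters, source, length normalization, test, detection level and each replicate left out.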

Additional observations from a re-analysis of the deposited data

Results flagged for a closer look

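Of 48 quantities checked over the 5 libraries (levels, record levels and differences), 4 had a library far from the others. In these the gap to the nearest was over 0.71 of the whole range. Chance alone flags about 1 in 20. Levels, record levels and differences share values, so the 48 quantities are not independent. Scn2b was at 15.5 TPM in replicate 2 and between 14.2 and 14.4 TPM in the others, and its record NM_012877.2 at 15.5 against 13.8 to 14.1 TPM. This record held 98.3% of the gene's TPM, so its flag largely repeats that of the gene. The CV of Scn2b over the 5 libraries, 3.58%, was near the 3.31% from counting reads alone. The Scn4b record XM_039081432.1 was at 3.60 TPM in replicate 5, against 2.12 to 2.53 TPM. Scn9a minus Fgf13 was -1.77 (log2) in replicate 1, against -1.49 to -1.39, in the library where Scn9a was lowest (21.4 TPM) and Fgf13 highest (73.4 TPM).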

How the results depend on the processing

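No paired analysis was possible because there is 1 group. Detection of 6 members held at 0.5 and 2 TPM, with named records and with each replicate left out. Pseudocounts of 1 and 0.01, no filter and each left-out replicate kept the direction and call of the 5 neighbour pairs. At a mean TPM of at least 10, Scn4b and Fgf11 fell under the filter as tested genes, so their neighbour differences had no value there, and 7 of 7 remaining member pairs were called in place of 15, Fgf12 against Scn4b as reference among them. With CPM of all records 14 of 15 were called. The exact sign-flip test gave p = 0.0625 for the same differences (-0.60, -1.38, 0.27, -0.65 and -1.63) and cannot pass the threshold. CPM turned Scn3b minus Fgf13 to 0.39 (named records) and 0.40 (all records) and Fgf12 minus Scn2b to -2.64 and -0.76, and named-record TPM turned the latter to -0.37; records left unnamed lower those sums, and the cause was not tested further. The same 3 settings, in this order, gave 3.26, 1.38 and 0.40 for Scn10a minus Fgf12 and 2.93, 1.05 and 0.23 for Scn11a minus Fgf12. The CPM settings gave 0.93 and 0.93 for Scn9a minus Fgf13, 0.54 and 0.52 for Scn9a minus Scn3b, and 0.29 and 0.29 for Scn11a minus Scn2b. The differences of Scn8a had no value in the CPM and named-record settings. Named records alone gave levels of 11.3 TPM for Fgf12, 6.69 for Scn4b and 2.15 for Fgf11, and CVs of 15.8% for Scn4b and 111% for Fgf14. Without records under 1000 bases, chosen after seeing the data, Fgf12 was at 8.36 TPM, with CVs of 4.32% for Fgf12 and 19.4% for Fgf14. The share of NM_130814.1 in Fgf12 was 46.1% of named reads and 52.3% of TPM with assigned records, and that of NM_053428.2 in Fgf13 88.3% of named reads. With each replicate left out, the CV ranged from 2.38% to 4.09% for Fgf13, from 6.15% to 12.1% for Fgf12, from 0.423% to 4.06% for Scn2b, from 4.32% to 9.01% for Scn4b, from 12.2% to 22.3% for Fgf11, from 28.8% to 57.9% for Fgf14, lowest without replicate 1, 4, 2, 2, 5 and 3. Depth limits Fgf14, with 25 to 42 reads per library. The planned comparison of protein sequences was not run.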
